A study of Drosophila melanogaster with 6 samples.

Results

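The regions described here are 821 places on the fly genome where a binding peak of Rbf overlapped a peak of its partner Dp of unlike extent, nearly always a small Rbf peak within a broader Dp peak. They were chosen by peak position and width in the 2 deposited peak lists. A member is a Dp peak narrower than 4000 bp that shared at least 1 bp with exactly 1 Rbf peak, where the shared bases made up less than 50% of at least one of the pair. The mitochondrial genome was left out, and the peak score played no part in the choice. The 821 members were 15.9% of the 5148 Dp peaks on the chromosome arms. Of the other Dp peaks, 1115 were matching-footprint sites, which had 1 Rbf peak with at least 50% of each peak shared, and 2552 were sites under 4000 bp without Rbf. A further 172 under 4000 bp held several Rbf peaks, and 488 were at least 4000 bp wide.

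The data are chromatin immunoprecipitation followed by sequencing (ChIP-seq) of Drosophila melanogaster flight muscles, with 2 Rbf samples, 2 Dp samples and 2 input samples without antibody. Muscles were dissected from pharate animals, which are about to eclose, 96 h after pupa formation, and the chromatin was fixed with 1.8% formaldehyde. All 6 samples carried P{UAS-mCherry-RNAi}attP2 together with a GAL4 driver of the muscle gene Mef2, so the RNAi was aimed at a fluorescent protein that flies lack. Rbf was precipitated with a mixture of the mouse antibodies DX3 and DX5 and Dp with a rabbit antibody. The growth protocol gives 25 °C throughout, and only in the Dp samples does the label for stage say 5 °C. Dissected muscle is not a single cell type, and peak lists hold no marker genes by which the tissue could be checked.

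Rbf is a fly retinoblastoma protein. It does not bind DNA by itself but sits on E2F transcription factors, and an E2F binds DNA as a pair with Dp. Bound Rbf can hold down E2F target genes, many of them for DNA replication and the cell cycle, and the same factors have roles in growing and differentiating muscle. A peak alone does not show whether a gene is held down. A peak's width is not a protein's footprint, because fragment length and the strength of enrichment also set how far a peak reaches.

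Both samples of an antibody share 1 list, so no spread between replicates could be computed, and read depth is unknown. Intervals in parentheses after shares are exact 95% intervals over peaks. They cover counting error only, and neighbouring peaks are not independent. Score means the value the authors' peak calling gave a peak. The sources used here do not give its unit. It starts at 50.01 and serves to order the peaks of 1 list, never to compare lists. The Dp samples entered the repository separately from the rest, so a difference between an Rbf and a Dp peak cannot be told apart from a difference between separate experiments.

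The typical member was an Rbf peak of about 400 bp inside a Dp peak of about 1 kb. Dp peaks of members had a median width of 1076 bp (quartiles 889 and 1332, range 379 to 3881). Their Rbf peaks had a median width of 410 bp (quartiles 330 and 511, range 143 to 1263). The Rbf peak covered a median of 39.9% of the Dp peak (quartiles 32.1 and 45.4). The rule sets these shares, and they describe the members without testing anything. No limit on Dp width separated members from matching-footprint sites, but the limit on the share also bears on Dp width. Dp peaks of the matching-footprint sites had a median width of 966 bp. Their Rbf peaks were 599 bp in the median. Of the members' Rbf peaks, 131 were under 300 bp (16.0%, 13.5 to 18.6), against 43 of 1115 (3.86%, 2.80 to 5.16) at the matching-footprint sites. The limit on the share draws narrow Rbf peaks into the members, so this difference follows in part from the rule. Over all 3470 Rbf peaks on the chromosome arms the lower quartile of width was 345 bp, close to the members' 330 bp. Their median of 528 bp and upper quartile of 746 bp were above the members' 410 and 511 bp.

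**Figure D1:**
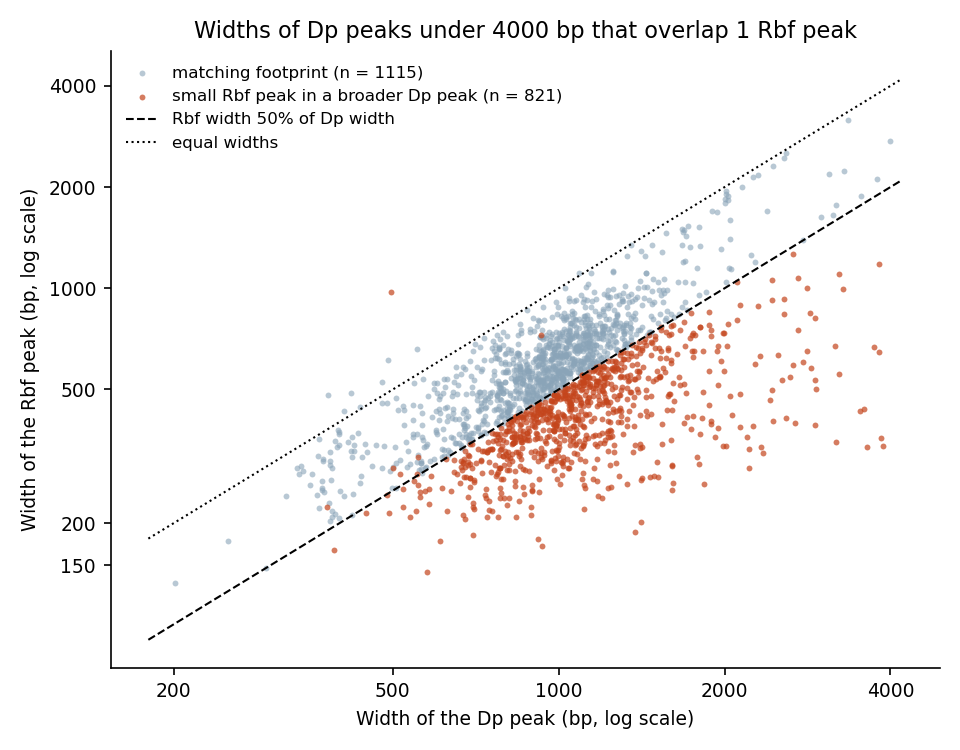
Width of the Rbf peak against width of the Dp peak in bp, on log axes, 1 point per Dp peak under 4000 bp that overlaps 1 Rbf peak. The 821 members lie almost entirely below the dashed line of 50% and run on without a gap into the 1115 matching-footprint sites above it.

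In 808 members (98.4%, 97.3 to 99.2) the Rbf peak lay wholly inside the Dp peak, and in the other 13 it reached past a Dp edge. Rbf covered under 50% of the Dp peak, and at least 50% of the Rbf peak was shared, in 815 members. In 5 of the 13 pairs both peaks shared under 50%, so the pair met at its edges. The slightest contact was on 2L, where an Rbf peak at 21268877 to 21269603 and a Dp peak at 21269602 to 21270529 had 2 bp in common (positions throughout are 1-based, build BDGP5). In 1 pair Rbf was the broader peak. There a 496 bp Dp peak on 3L at 24226654 to 24227149 met a 977 bp Rbf peak at 24226681 to 24227657, and the shared 469 bp were 94.6% of the Dp peak and 48.0% of the Rbf peak. Scores of these 6 Dp peaks ran from 56.21 to 125.25, near the low end of the Dp list.

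The 2 Dp flanks of each nested pair were sorted into a shorter and a longer one, so their medians differ by construction. In the 808 nested members the shorter Dp flank was 196 bp in the median (quartiles 133 and 265) and the longer 431.5 bp (335 and 592). At nested matching-footprint sites the corresponding medians were 108 and 234.5 bp. The 2 flanks together measured 647 bp in members and 354 bp at matching-footprint sites, and the larger sum in members follows from how the classes were drawn. The longer flank lay toward either end of the arm about equally often. The Rbf midpoint had the higher coordinate in 409 nested members and the lower in 398, with 1 exact tie.

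Single pairs show the range. The members of highest Dp score were 4 peaks at 3100, a value shared by 75 Dp peaks, with 10 above it and a highest score of 3217.88 in the list. The first, on 2R at 9296597 to 9298210, held an Rbf peak at 9297224 to 9297999 with a score of 1134.02. Another, on 2R at 20152073 to 20153814, held the Rbf peak with the highest score of any member, 1304.37, at 20152439 to 20153280. The remaining 2 were on 3R, at 5321935 to 5323408 (Rbf score 1136.04) and at 10484119 to 10485990 (Rbf score 818.88). In all 4 the Rbf peak covered between 45.4% and 48.3% of the Dp peak and lay within 208 bp of its midpoint. These pairs thus stood close to the 50% limit.

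Away from that limit stood pairs in which a narrow Rbf peak marked 1 end of a long Dp peak. On 2R, a 3881 bp Dp peak at 3124635 to 3128515 scored 1038.75 and met an Rbf peak of 339 bp at 3128220 to 3128558, which scored 94.21. Their midpoints were 1814 bp apart, the most of any member. On 3R, a 3854 bp Dp peak at 18706928 to 18710781 held a 358 bp Rbf peak 2 bp from its high end. On 2R, a 3635 bp Dp peak at 768727 to 772361 held one of 338 bp, 1481.5 bp off the midpoint. A pair on 3L combined an end position with a strong Rbf peak. There a 387 bp Rbf peak at 21491512 to 21491898, with a score of 1205.63, stuck out by 23 bp from the low end of a 2134 bp Dp peak at 21491535 to 21493668 that scored 733.86. That Rbf score ranked above 97.5% of the Rbf list, and the Dp score above 64.3% of the Dp list. The smallest shares of Dp covered were those of the 2L pair with 2 bp in common (0.216%), a pair on chromosome 4 at 434803 to 435317 (3.30%), the 3881 bp peak on 2R (7.63%) and a pair on X at 21342592 to 21343167 (9.03%). The X pair held the narrowest Rbf peak, 143 bp.

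**Figure D2:**
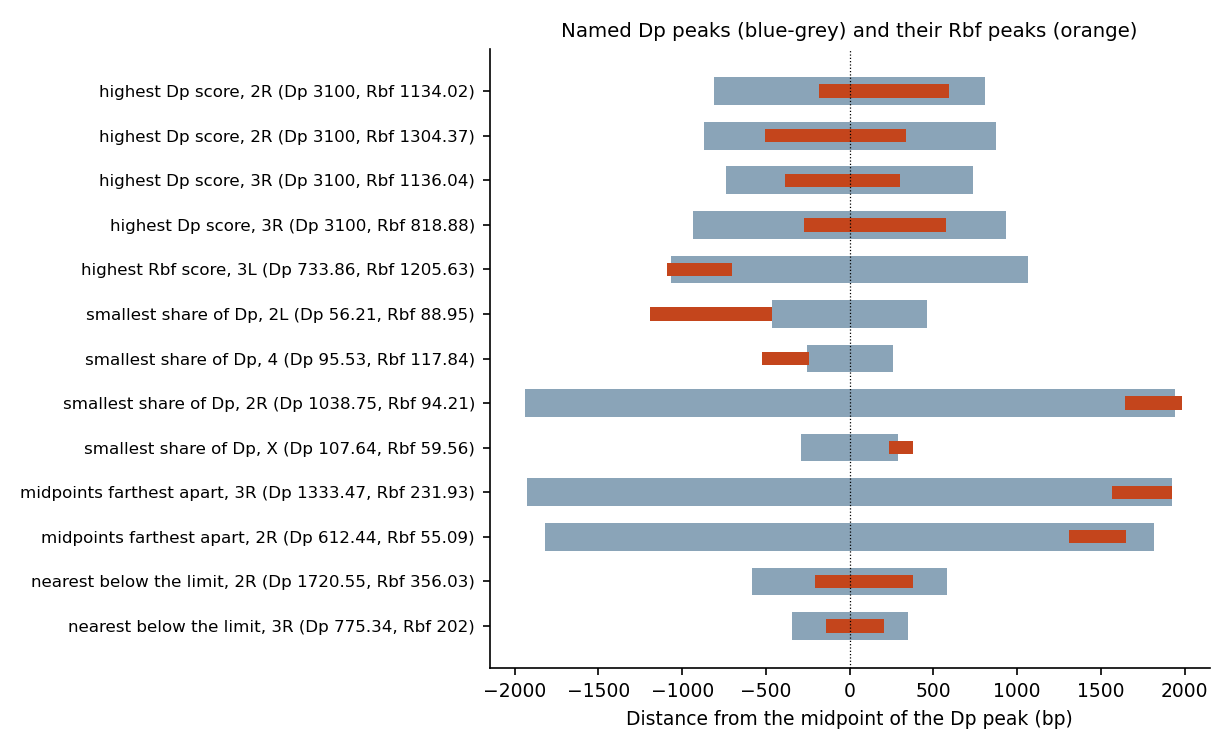
Extent of named pairs, aligned on the midpoint of the Dp peak, with distance in bp. Wide bars are Dp peaks, thin bars the Rbf peaks, and the labels give the reason for naming, the arm and both scores. The 4 pairs of highest Dp score have Rbf near the middle, while the 3 pairs with midpoints at least 1481.5 bp apart have it at an end.

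Rbf lay near the middle of most Dp peaks and more often off it in long ones. The median distance between the midpoints of a pair was 108 bp (quartiles 55.5 and 199). In 633 of the 821 members (77.1%, 74.1 to 79.9) the Rbf peak spanned the Dp midpoint. Of the nested members, 732 of 808 (90.6%, 88.4 to 92.5) had the Rbf midpoint in the middle 50% of the Dp peak. A narrow peak inside a wider one has limited room to move, so the offset was also measured against the largest that would keep the Rbf peak inside. On that scale 296 members (36.6%) lay in the innermost 25%, 255 (31.6%) in the next, 167 (20.7%) in the one after and 90 (11.1%) in the outermost. Matching-footprint sites gave 38.1%, 35.7%, 19.9% and 6.34%, so the members leaned toward the middle in much the same way, with more of them at the ends. No test was run on this difference, since overlap chose both classes.

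The Rbf peak lay farther from the middle in wider Dp peaks, also when the room to move was taken into account. Among nested members with Dp peaks of 750 to under 1000 bp, 244 of 247 (98.8%) had Rbf in the middle 50%. From 1000 to under 1500 bp it was 333 of 351 (94.9%), from 1500 to under 2000 bp 61 of 83 (73.5%), and from 2000 bp up 23 of 55 (41.8%). The median distance of midpoints in these classes was 81.5, 122.5, 303.75 and 761 bp. Wider Dp peaks did not hold proportionally wider Rbf peaks. The median Rbf width was 364 bp in the class from 750 bp, 470 bp in that from 1000 bp, 567 bp in that from 1500 bp and 579 bp in that from 2000 bp. In the widest class Rbf therefore covered a median of 20.9% of the Dp peak, against 42.1% in the class from 750 bp, and this share limits how far a midpoint can leave the middle. In percent of the room to move, the median offset was 31.2% in the class from 750 bp (95% interval of the median 27.6 to 37.3), 34.4% in that from 1000 bp (30.9 to 38.3), 50.8% in that from 1500 bp (41.5 to 63.6) and 81.2% in that from 2000 bp (58.9 to 87.1). The outermost 25% of the room held 6 of 247 members in the first of these classes and 30 of 55 in the last (54.5%, 40.6 to 68.0). At matching-footprint sites the median offset was between 31.2% and 36.4% of the room in the same 4 classes, with 28 sites in the widest. Of the 57 members from 2000 bp up, 25 lay within 2 Mb of the centromere end of a large arm and 2 on chromosome 4. Elsewhere on the large arms the median offset of members was 29.5% of the room under 1000 bp. It was 32.2% there from 1000 to under 1500 bp and 51.8% from 1500 bp up.

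**Figure D3:**
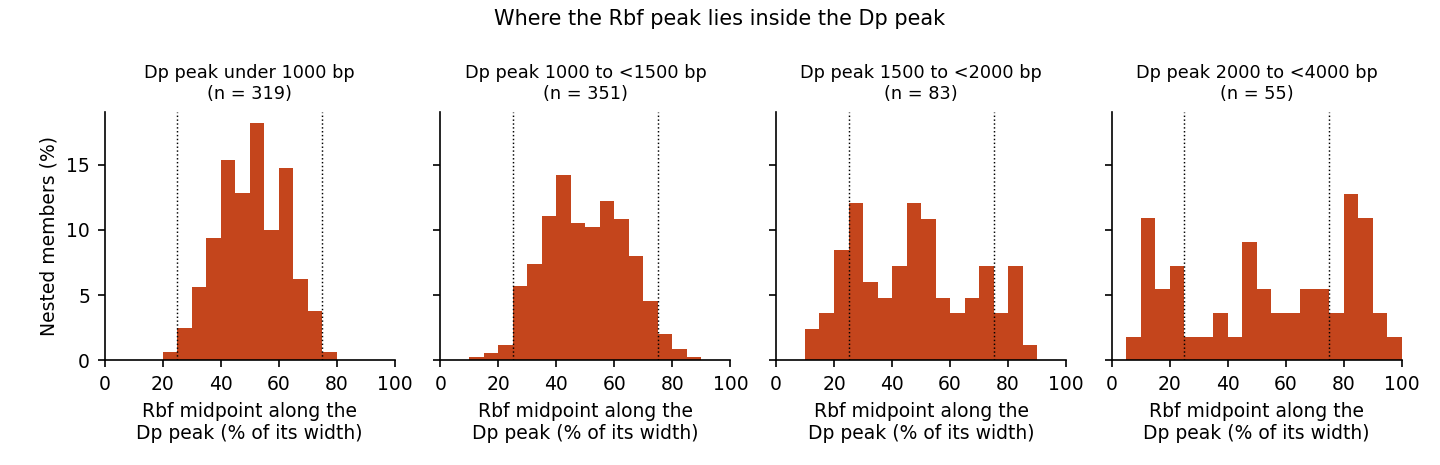
Position of the Rbf midpoint along the Dp peak, in percent of Dp width, for the 808 nested members in 4 classes of Dp width, as a percentage of the members of each class. Dotted lines enclose the middle 50%, which held 94.9% of members from 1000 to under 1500 bp and 41.8% from 2000 bp up.

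Members mostly had Dp scores in the upper 50% of the Dp list, and their Rbf scores fell on both sides of the middle of the Rbf list. All values here come from the same peak lists that chose the members and are given without a test. The Dp score of members had a median of 942.53 (quartiles 505.13 and 1360.27), and 675 of 821 (82.2%, 79.4 to 84.8) were in the upper 50% of the Dp list. The Rbf score had a median of 121.60 (quartiles 78.79 and 225.46), and 487 members (59.3%, 55.9 to 62.7) were in the lower 50% of the Rbf list. Jointly, 346 members (42.1%, 38.7 to 45.6) had a Dp score in the upper 50% with an Rbf score in the lower 50%, and 329 (40.1%, 36.7 to 43.5) had both in the upper 50%. Of the matching-footprint sites, 100 (8.97%) had the first combination and 800 (71.7%) the second. At matching-footprint sites the medians were 1314.32 for Dp and 322.88 for Rbf. There 80.7% were in the upper 50% of the Dp list, close to the members' share, but 21.3% (19.0 to 23.9) were in the lower 50% of the Rbf list. Dp sites without Rbf, 2552 of the 5148 Dp peaks, had a median Dp score of 143.34, below the median of 354 of the whole Dp list. Each 50% is set within its own list, so the joint classes do not show that Dp was more strongly bound than Rbf.

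Rbf scores of members were also lower among sites of like Dp score. The Dp list was divided at its quartiles into 4 score classes, from 1 (lowest) to 4 (highest), and the Rbf list likewise. In Dp class 4 the median Rbf score was 243.23 for 325 members and 479.42 for 657 matching-footprint sites. In class 3 it was 99.02 for 350 members and 175.95 for 243 matching-footprint sites. In class 2 it was 64.17 against 104.88, and in class 1 72.21 against 82.41, with 98 and 48 members. Dp scores were not equal within these classes. In class 4 they had a median of 1469.01 in members and 1762.19 at matching-footprint sites. In class 3 the medians were 760.26 and 795.43. The share of members among all Dp peaks under 4000 bp with 1 Rbf peak was 59.0% (54.9 to 63.0) in Dp class 3, the highest of the 4, and 33.1% (30.2 to 36.1) in class 4. Sorted by Rbf score instead, it was 69.0% (63.4 to 74.1) in class 1 and 16.3% (13.6 to 19.3) in class 4. Rbf width rose with Rbf score (Spearman's rho 0.58 over 821 members), though not throughout. Rbf peaks of 500 to under 700 bp had a median Rbf score of 287.26 and the 46 from 700 bp up one of 89.5. The part of Rbf width in these score differences was not tested.

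On the large arms the scores of the pair went up together. Over the 821 members the rank correlation of Dp score with Rbf score was 0.78, and over the 1115 matching-footprint sites it was 0.77. It was 0.50 in the 114 members within 2 Mb of the centromere end of a large arm and 0.78 in the 698 elsewhere on these arms. In the 9 members on chromosome 4 it was -0.17. Both scores of a pair come from the same stretch of genome, and both depend on whatever control the peak calling used. Off the line lay 57 members (6.94%, 5.30 to 8.90) with a Dp score in class 4 and an Rbf score in the lower 50%. Their Rbf peaks had a median width of 359 bp and covered 30.1% of the Dp peak. The 3 lowest Rbf scores among them, picked after the values were seen, were 51.73 on 3R in a Dp peak at 10867180 to 10870990, 52.73 on 3R in one at 4396135 to 4399710 and 54.76 on 3L in one at 11055332 to 11056568. The reverse combination, a Dp score in the lower 50% with an Rbf score in class 4, was met once, on 3L at 24062418 to 24063886 (Dp 218.76, Rbf 323.84). The 1115 matching-footprint sites leaned the other way. Of these, Dp class 4 held 1 site in Rbf class 1 and 7 in Rbf class 2. Rbf class 4 held 14 sites in Dp class 1 and 23 in Dp class 2. The limit on the share draws narrow Rbf peaks into the members, and its part in this difference was not tested.

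**Figure D4:**
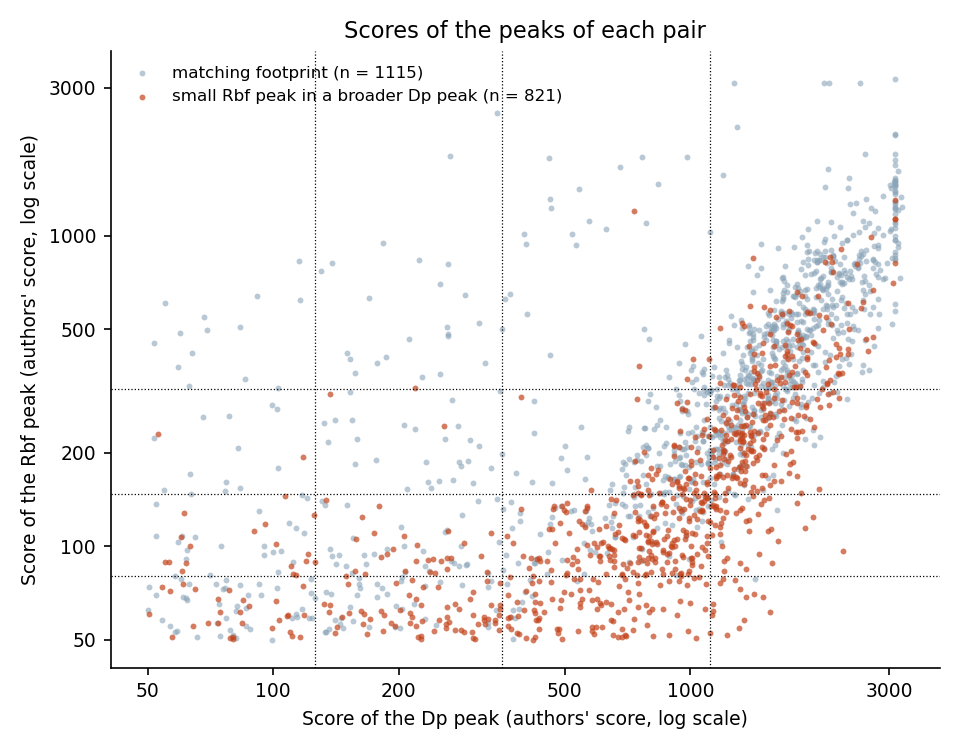
Score of the Rbf peak against score of the Dp peak, on log axes, for the 821 members and the 1115 matching-footprint sites, with dotted lines at the quartiles of each whole list. Both classes rise together, and at a given Dp score the members mostly sit lower on the Rbf axis.

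The limit of 50% cut through a continuous range. The 217 members with 45% to 50% of the broader peak shared had median scores of 1214.21 for Dp and 209.03 for Rbf. The 254 matching-footprint sites with 50% to 55% shared had 1117.13 and 217.64. The member nearest below the limit, on 2R at 13672924 to 13674090, had 49.96% of its Dp peak covered. Next came a Dp peak on 3R at 17233884 to 17234574 with 49.93%. The sites nearest above it, on 2L at 7641563 to 7641984 and at 16910018 to 16910965, both had exactly 50%. At the limit of width there were 8 members from 3500 bp up, with a median Rbf score of 61.93, and 3 otherwise like peaks from 4000 to 4500 bp, with 68.55.

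Members were found on all arms, and their share of the Dp peaks was lowest on X. They numbered 148 on 2L, 185 each on 2R and 3L, 174 on 3R, 120 on X and 9 on chromosome 4. Of the Dp peaks of an arm, members made up 15.4% to 17.4% on the 4 large autosome arms and 12.8% (10.7 to 15.1) on X. X held 120 of the 812 members on the 5 large arms (14.8%), against 502 of 2519 Dp sites without Rbf (19.9%). The odds ratio was 0.697 (95% interval 0.561 to 0.866, two-sided Fisher's exact test, adjusted over 4 tests p = 0.0037). By the same exact test, this call was lost when peaks of a class at most 5 kb apart were counted once (0.778, adjusted p = 0.14), among Dp peaks of 700 to 1500 bp (0.792, adjusted p = 0.23) and among Dp scores in the upper 50% (0.696, adjusted p = 0.10). Adjusted p over all alternatives of this comparison ran from 1.1e-04 to 0.23. Against matching-footprint sites, of which 17.9% were on X, the odds ratio was 0.797 (0.622 to 1.02) and did not pass (Fisher's exact test, adjusted p = 0.16), and among Dp peaks of 700 to 1500 bp it was 1.02. It passed the same exact test in 3 alternatives, where it was between 0.650 and 0.756. The value of 0.756 came without chromosome 4 and the stretches near centromeres. There p of Fisher's exact test was adjusted over the tests of X alone (adjusted p = 0.037). X members were smaller, with median widths of 915 bp for Dp and 356 bp for Rbf, against 1104.5 and 419 bp on the large autosome arms. Rbf peaks under 300 bp made up 25.8% of X members and 14.3% of those on the large autosome arms. The part of peak width in the X shares was not tested beyond these alternatives.

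**Figure D5:**
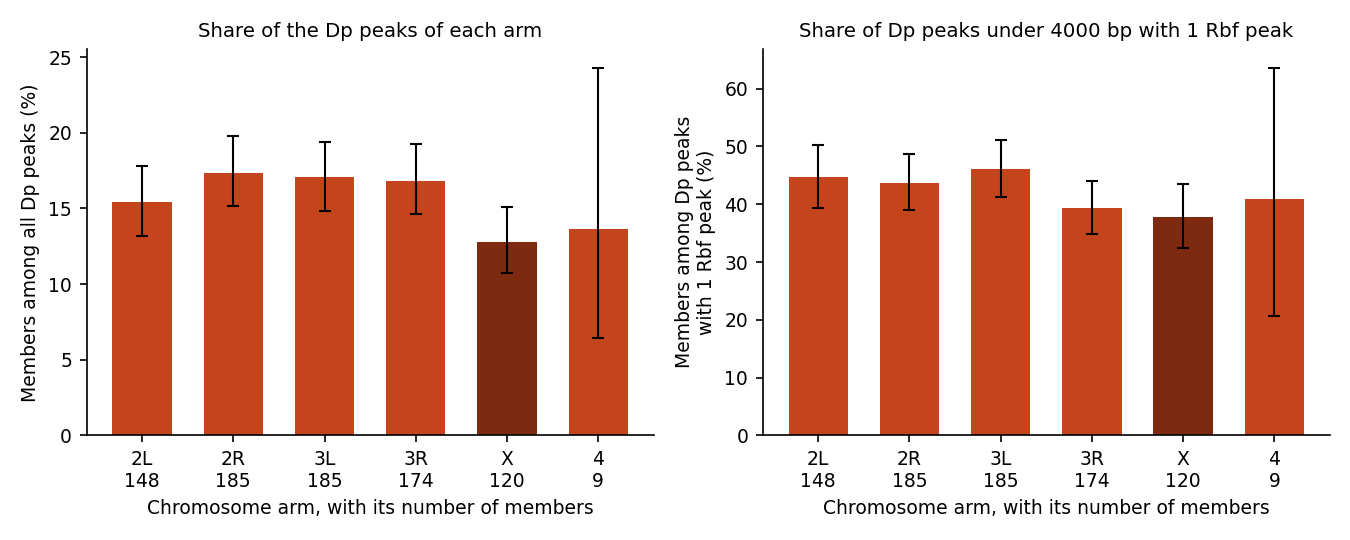
Members as a percentage of all Dp peaks of each arm (left) and of the Dp peaks under 4000 bp with 1 Rbf peak (right), with exact 95% intervals as error bars and the number of members under each arm. X, in the darker shade, has the lowest bar in both panels. Its interval overlaps those of all other arms but 2R on the left, and those of all other arms on the right.

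Near the centromeres the members had longer Dp peaks of lower score than elsewhere, and Rbf was more often off the middle, though in the middle 50% in most. On the 5 large arms, 114 members lay within 2 Mb of the centromere end of the listed span. Dp score there had a median of 219.04 (quartiles 114.39 and 547.37), against 1024.99 (670.66 and 1417.21) in the 698 members elsewhere on these arms. A low Dp score near centromeres was shared by the other classes. In the lower 50% of the Dp list were 76 of the 114 members near centromeres (66.7%, 57.2 to 75.2) and 8.74% of those elsewhere, 109 of 144 matching-footprint sites (75.7%, 67.9 to 82.4) and 10.2% elsewhere, and 94.0% of 335 Dp sites without Rbf and 81.2% elsewhere. Rbf score of members was 83.0 against 136.5 in the median, and at matching-footprint sites it was 106.7 against 352. In members the Dp width was 1385 against 1048.5 bp, and at matching-footprint sites 808.5 against 976 bp. Midpoints of members were 263.5 bp apart (quartiles 124.1 and 453), against 92.8 bp (48.5 and 163.4) elsewhere. At matching-footprint sites they were 40.8 bp apart near centromeres and 51 bp elsewhere. The Rbf midpoint was in the middle 50% of the Dp peak in 73 of 110 nested members near centromeres (66.4%, 56.7 to 75.1) and in 655 of 690 elsewhere (94.9%, 93.0 to 96.4). The near-centromere share was also lower within each class of Dp width, though on few peaks. Under 1000 bp it was 18 of 21 (85.7%, 63.7 to 97.0) against 99.7% elsewhere. From 1000 to under 1500 bp it was 35 of 43 (81.4%, 66.6 to 91.6) against 97.0%. From 1500 bp up it was 20 of 46 (43.5%, 28.9 to 58.9) against 71.6%. In percent of the room to move, the median offset in these classes was 47.8% against 29.5%, 63.1% against 32.2%, and 83.5% against 51.8%. These differences between classes and places were not tested. Within the lower 50% of Dp scores, Rbf was in the middle 50% in 63.9% (51.7 to 74.9) of 72 nested members against 85.7% (73.8 to 93.6) of 56, and those intervals overlap. Within the upper 50% it was 71.1% (54.1 to 84.6) of 38 against 95.7% (93.9 to 97.2) of 634. Dp width was not held equal in this split, with medians of 1471 against 823 bp in the lower 50% and 1273 against 1052 bp in the upper. The median offset was 73.1% against 46.3% of the room in the lower 50% and 42.1% against 30.6% in the upper. Repeats and read mapping near centromeres were not tested.

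These values varied between arms, and 3R did not share the low Dp scores. Near the centromere of 3R, 16 members had a median Dp score of 1168.66 and midpoints 118.5 bp apart. Near those of 2L, 2R, 3L and X, with 20, 27, 38 and 13 members, median Dp scores ran from 151.59 to 325.74 and distances from 207.25 to 307.5 bp. The 9 members of chromosome 4 had a median Dp score of 235.54, within that range, and midpoints 381 bp apart, above it.

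The share of members near centromeres passed neither test. It was 14.0% on the large arms, against 13.1% of matching-footprint sites (odds ratio 1.09, interval 0.834 to 1.42, two-sided Fisher's exact test with adjusted p = 0.60) and 13.3% of Dp sites without Rbf (1.06, interval 0.847 to 1.34, with adjusted p = 0.60 by the same exact test). The value depended on where the class was drawn. With under 40% of a peak shared the odds ratio against matching-footprint sites was 1.79 (Fisher's exact test, adjusted p = 6.1e-04), and with under 60% it was 0.769 (adjusted p = 0.088). Adjusted p over all alternatives ran from 6.1e-04 to 0.89. Against Dp sites without Rbf the odds ratio was 1.58 with under 40% shared (Fisher's exact test, adjusted p = 0.0032) and 0.501 among Dp peaks of 700 to 1500 bp (adjusted p = 9.8e-05), in a range of adjusted p from 9.8e-05 to 0.94. Near centromeres were 17 of the 48 members on the large arms with under 20% of Dp covered (35.4%), 26 of 106 (24.5%) with 20% to 30%, 36 of 252 (14.3%) with 30% to 40% and 34 of 405 (8.40%) with 40% to 50%.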

How the data were processed

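Tools given without roles in the submitters' processing notes are MACS 1.4.2, Bowtie2 2 and bcl2fastq 1.8.3, and the build is BDGP5. The authors deposited 2 peak lists of 5 columns, 1 per antibody, whose last column is a score per peak. Whether samples were pooled and whether input was the control is not stated. Peak width was the end minus the start of each line. Overlaps were computed in Python 3.11.15 with numpy 2.4.6 and pandas 2.3.3, and were the same as those of bedtools 2.31.1. Location was compared by Fisher's exact test (scipy 1.17.1), two-sided, over peaks, with Benjamini-Hochberg adjustment over 4 tests, an adjusted p under 0.05 as threshold, and Woolf intervals for odds ratios. In the alternative without chromosome 4 and the stretches near centromeres, the adjustment covered only the tests of X. The largest peak end of either list stood for an arm's length. Code was tested on simulated data, and figures were drawn with matplotlib 3.10.9. The peak lists used here hold no values per sample, so no test covers replicates.

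The members, classes and rules were chosen with earlier results of these data known. Named pairs are the 4 of highest Dp score, the 4 of highest Rbf score, the 4 with the smallest share of Dp covered, the 3 with midpoints farthest apart and the 2 on each side of the 50% limit. Other pairs and the comparisons by Dp width, score and position near centromeres were chosen after values were seen. The gene annotation at hand is of Release 6, another build, and no genome sequence of BDGP5 was used, so no genes, motifs or sequences are given.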

Additional observations from a re-analysis of the deposited data

How the results depend on the processing

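Over 11 results, 80 of 116 alternative values kept their direction, side of the 0.05 threshold or interval, and 5 odds ratios changed direction. Members numbered 413 with under 40% of a peak shared, 1274 with under 60% and 539 with scores of at least 100 in both lists. The median Rbf score of members minus matching-footprint sites was -201 and ran from -230 to -175. For Dp scores the difference was -372, and it moved to -201 with scores of at least 100 and to -484 among Dp peaks of 700 to 1500 bp. Odds of lying on X against matching-footprint sites passed the threshold by Fisher's exact test with under 60% shared (0.650), without Rbf peaks under 300 bp (0.715) and without chromosome 4 and the stretches near centromeres (0.756). In the last of these only the tests of X could be run, and p was adjusted over those alone. The odds of X against matching-footprint sites turned to 1.02 among Dp peaks of 700 to 1500 bp. Against Dp sites without Rbf they no longer passed with neighbours at most 5 kb apart counted as 1 (0.778), in that width range (0.792) and among Dp scores in the upper 50% (0.696). Odds of lying near centromeres against matching-footprint sites became 1.79 with under 40% shared, which passed, and turned to 0.769 with under 60%. Against Dp sites without Rbf they were 1.58 with under 40% shared, which passed, and turned to 0.924 with under 60%, to 0.698 with scores of at least 100 (adjusted p = 0.043) and to 0.501 among Dp peaks of 700 to 1500 bp (adjusted p = 9.8e-05), both by Fisher's exact test. Adjusted p of that comparison ran from 9.8e-05 to 0.94. The cause of these changes was not tested. Counting neighbours once, nested members only, the width range and the upper 50% of Dp scores were added after seeing the data. No paired analysis was possible because a peak has only 1 score and extent for the 2 samples of an antibody, and no replicate could be left out. Unknown depth limits every count of peaks.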

Other observations

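Of 605 bins of 200 kb on the arms, 406 (67.1%) held at least 1 of the 821 members, 464 (76.7%) at least 1 of the 1115 matching-footprint sites and 599 (99.0%) at least 1 Dp peak. The most in a bin was 8, on 3L from 24200001 to 24400000, among 34 Dp peaks. Away from the centromeres, a bin on 3L from 15400001 to 15600000 held 7 members among 13 Dp peaks and no matching-footprint site, and one on X from 8000001 to 8200000 held 7 among 15. These bins were picked after their values were seen.

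The nearest other Dp peak lay a median of 3523 bp from a member (quartiles 1223 and 9460) and 5022 bp from a matching-footprint site (1852 and 12429). It was within 1 kb for 182 members (22.2%, 19.4 to 25.2) and 180 matching-footprint sites (16.1%, 14.0 to 18.4). An Rbf peak beyond that of the pair was within 1 kb of the Dp peak for 73 members (8.89%) and 91 matching-footprint sites (8.16%). The nearest other Dp peak was itself a member for 166 members (20.2%), while members were 15.9% of all Dp peaks. It was a matching-footprint site for 215 members (26.2%), while those sites were 21.7% of all Dp peaks. For 374 members (45.6%) it lacked Rbf and was under 4000 bp wide, against 49.6% of all Dp peaks. These differences were not tested.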
